A study of Mus musculus with 4 samples.

Results

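The citrate cycle, the malate-aspartate shuttle and the enzymes and carriers that feed them were represented by 32 genes, all found by name among the 56493 genes of the count table. They were listed by name as members of these pathways, with no threshold on a measured value. All 32 also passed a filter on low counts that kept 19638 genes for testing. RNA was sequenced from cells sorted from the retina of wild-type mice under the label RGC, for retinal ganglion cells, which send their axons through the optic nerve. Every mouse had received an AAV2 vector in the vitreous and then, about a month later, an optic nerve crush. In 2 libraries this vector was AAV2-CrAT, meant to overexpress carnitine acetyltransferase, and in 2 it was AAV2-MCS. The titles of all these libraries also carry the tag NCd8, which the titles do not spell out. The labels do not spell out MCS, and the promoter of the vectors, the species of the CrAT insert, the age of the mice and any pooling of animals are not stated in what was used here. Whether replicates were separate animals is not stated, and the p-values then speak only for the spread of these libraries, which may be technical.

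In the citrate cycle, acetyl groups from carbohydrate, fat and amino acids are joined to oxaloacetate and oxidised in the mitochondrial matrix, and the electrons are passed to the respiratory chain. The malate-aspartate shuttle carries the electrons of cytosolic NADH into mitochondria by moving malate, aspartate, glutamate and 2-oxoglutarate across the inner membrane, and the retina, with its high energy use, depends on both. Carnitine acetyltransferase exchanges acetyl groups between coenzyme A and carnitine, next to the point where acetyl-CoA enters the cycle.

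Libraries held 24494253 to 27097438 counts. No gene of 19638 differed between CrAT and MCS libraries at an adjusted p under 0.05 (edgeR quasi-likelihood test, 0% called), with 251 higher and 564 lower in CrAT at an unadjusted p under 0.05, and DESeq2 called 49 genes, or 0.236% of those it could adjust. Transcripts of Crat were 72.5 and 49.9 CPM (counts scaled to library depth, with TMM factors) in CrAT replicates 1 and 2, against 38.3 and 47.7 CPM in MCS replicates 1 and 2 (edgeR, adjusted p = 1). The label of ganglion cells was not borne out by abundance. The 13 rod markers summed to 53930 and 29209 CPM in CrAT libraries, against 52111 and 31641 CPM in MCS libraries. The 10 ganglion cell markers summed to 82.9 and 193.1 CPM in CrAT, against 59.0 and 138.7 CPM in MCS. The filter on low counts kept 9 of these 10. Of the ganglion markers, Pou4f1 and Pou4f2 had a count of 0 in at least 1 library. Mueller glia markers were lower in CrAT by value in 11 of 11 genes, with sums of 15515 and 12665 CPM in CrAT, against 23219 and 20908 CPM in MCS. MCS replicate 1 stood apart in the sum of nuclear retained RNA, 488 and 545 CPM in CrAT replicates, against 1477 and 412 CPM in MCS replicates. Most of that sum was Malat1, at 393 and 367 CPM in CrAT, against 1278 and 307 CPM in MCS. Neat1, Meg3 and Kcnq1ot1 were also highest in MCS replicate 1, while Snhg11 was highest in CrAT replicate 2 and Miat did not pass the filter. In such bulk samples, fewer cells of a type and less RNA per cell cannot be told apart.

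Taken by name and role, 23 of the 32 genes had a positive log2 fold change, CrAT over MCS, and 9 a negative one, where 50.6% of all genes tested were positive. Their median was 0.18 on the log2 scale, against 0.01 for all genes tested, and the members ran from -0.77 for Idh2 to 0.85 for Got1. None passed the threshold in edgeR, and none in DESeq2, whose smallest adjusted p among them was 0.927. This does not show that the levels were alike, since even the narrowest 95% interval of a member's log2 fold change, that of Glud1, ran from -0.92 to 0.35. At an unadjusted p under 0.05, edgeR found 0 members higher and 1 lower, where the shares of all genes were 1.28% and 2.87%. In DESeq2 2 members had such a p, Got1 and Idh2, where the share of all genes was 3.04%. In 10 members each CrAT library exceeded each MCS library, as in 15.0% of all genes, and in 2 each was lower than each MCS library, as in 16.6%. The shift depended on MCS replicate 1. Without that library, 16 members were higher and 16 lower, with a median of 0.01, and without MCS replicate 2 the median was 0.45.

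For some members the counts are uncertain, because their exons overlap those of a gene on the other strand and the library kit does not keep strand. A partner with at least 1% of the member's counts was listed for 8 members. The partner's whole count was set as a percentage of the member's. It was highest for Slc25a11 with Rnf167 (92.6%), Mpc1 with the lncRNA 4930506C21Rik (72.8%) and Idh3b with Nop56 (55.1%). It was 17.4% for Got2, 12.1% for Me3, 5.14% for Slc25a10, 3.56% for Cs and 1.18% for Me1. The length of the overlaps was not measured, so these percentages do not give the part of a member's counts in doubt.

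**Figure D1:**
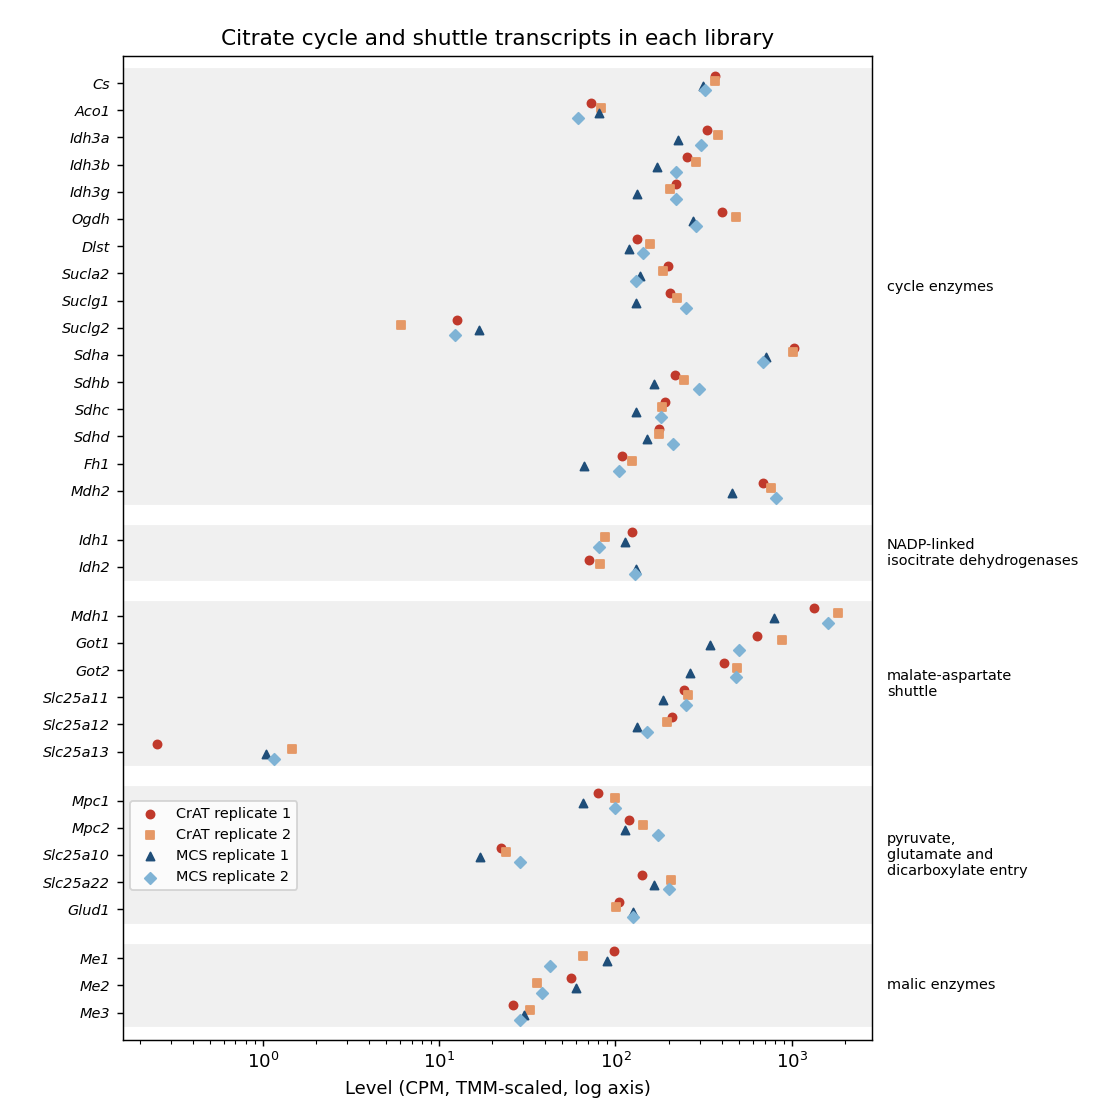
Level of each member in each library, in CPM on a log axis, with members in rows by role and 1 symbol per library. Levels run from 0.251 CPM for Slc25a13 in CrAT replicate 1 to 1827 CPM for Mdh1 in CrAT replicate 2, and the dark triangle of MCS replicate 1 is the lowest point in 20 of 32 rows.

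The promoters of the 2 members at the ends of the range of fold changes, Got1 and Idh2, are shown as the 250 bases before the transcription start in RefSeq, build GRCm38.p6, both on the minus strand. Got1 encodes the cytosolic aspartate aminotransferase of the shuttle and Idh2 the NADP-linked isocitrate dehydrogenase of mitochondria. The Got1 window lies at chr19:43524606-43524855 and that of Idh2 at chr7:80115351-80115600. Capitals mark matches on either strand to the GC box (GGGCGG) and to the CCAAT box (CCAAT), which do not overlap each other here.
Got1: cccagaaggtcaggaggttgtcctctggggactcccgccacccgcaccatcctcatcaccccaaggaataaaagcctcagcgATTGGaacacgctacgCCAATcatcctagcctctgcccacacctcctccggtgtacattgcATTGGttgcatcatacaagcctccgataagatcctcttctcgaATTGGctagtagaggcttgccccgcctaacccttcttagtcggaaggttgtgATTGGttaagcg
Idh2: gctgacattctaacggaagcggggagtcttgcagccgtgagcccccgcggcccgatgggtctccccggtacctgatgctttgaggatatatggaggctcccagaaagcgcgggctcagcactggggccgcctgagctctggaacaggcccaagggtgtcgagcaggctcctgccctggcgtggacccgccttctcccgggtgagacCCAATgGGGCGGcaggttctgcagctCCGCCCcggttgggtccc
The Got1 window held 5 CCAAT boxes and 0 GC boxes, and the Idh2 window held 1 CCAAT box and 2 GC boxes. RefSeq windows were at hand for 29 of the 32 members, 39 windows in all, some of which overlap within a gene. A GC box was found in 23 of these, or 59.0%, against 32.7% of 32851 windows of all genes. A CCAAT box was found in 20, or 51.3%, against 33.8%. By gene, a GC box was found in 18 of the 29 members and in 9555 of all 27025 genes with a window. For the CCAAT box these counts were 17 and 10133. The windows of all genes were not limited to genes that passed the filter on low counts. No share matched for expression or for GC content was computed. The binding motif of the ETS factors (CCGGAAG) was found in 4 member windows, those of Glud1, Idh3g, Mpc1 and Sdhd, which is 10.3% against 6.91% of all windows. The motif of the estrogen-related receptors (TNAAGGTCA) and the palindromic motif of NRF1, both regulators of mitochondrial genes, were in none of the 39, against 1.14% and 0.782% of all windows. These are matches of letters within 250 bases and say nothing of whether a factor was bound.

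The cycle enzymes were mostly higher in CrAT by value, without any passing the test. Of 16, 13 had a positive log2 fold change, where 50.6% of all genes did, and the median was 0.23. In 8 each CrAT library exceeded each MCS library, as in 15.0% of all genes, and in 0 the reverse held, as in 16.6%. Without MCS replicate 1, 10 of the 16 were higher, with a median of 0.10. Summed over the 16 genes, the level was 4602 and 4882 CPM in the CrAT replicates, against 3292 and 4248 CPM in the MCS replicates.

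The cycle begins with citrate synthase (Cs), which joins acetyl-CoA to oxaloacetate. Cs was at 369 and 366 CPM in the CrAT libraries, against 315 and 322 CPM in the MCS libraries. The groups did not overlap, but the gap was small beside the error of the fit, with a log2 fold change of 0.21 (SE 0.28, 95% interval -0.47 to 0.88). It had the narrowest range of the members, 0.19 to 0.23, when any 1 library was left out. Aco1, the cytosolic aconitase, which also acts as an iron-regulatory protein, was at 73.0 and 82.3 CPM in CrAT, against 80.5 and 61.1 CPM in MCS, and its groups overlapped.

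Isocitrate is oxidised in the cycle by the NAD-linked dehydrogenase, built of the catalytic subunit Idh3a with Idh3b and Idh3g. Idh3a was at 329 and 380.3 CPM in CrAT against 226 and 305 CPM in MCS, and Idh3b at 253 and 286 CPM in CrAT against 172 and 221 CPM in MCS. Both had CrAT above MCS in every pair of libraries, with log2 fold changes of 0.42 (SE 0.31) and 0.46 (SE 0.30) and adjusted p = 1 in edgeR. Idh3g was at 221 and 203 CPM in CrAT, against 132 and 221 CPM in MCS, so only MCS replicate 1 stood below the rest. Per length the subunits were close to each other, with mean levels over all 4 libraries of 61.0 FPKM for Idh3a, 67.9 for Idh3b and 71.7 for Idh3g (FPKM, counts per kilobase of exon scaled to depth).

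Ogdh, the first enzyme of the 2-oxoglutarate dehydrogenase complex, gave the highest fold change among the cycle enzymes. Its level was 402 and 480.2 CPM in the CrAT libraries, against 274 and 286 CPM in the MCS libraries. The MCS pair lay close together and both CrAT libraries lay well above it, 1.58-fold on average. The log2 fold change was 0.66 (SE 0.29, 95% interval -0.04 to 1.36), with an unadjusted p of 0.0618 and an adjusted p of 1 in edgeR. It stayed between 0.54 and 0.78 with any 1 library left out. Dlst, which carries the succinyl group in the same complex, was at 133 and 158 CPM in CrAT, against 119 and 144 CPM in MCS. Its groups overlapped, with a log2 fold change of 0.14 (SE 0.28). These 2 members, which are not all the genes of the complex, thus had unlike values, though a difference between them was not tested.

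Succinyl-CoA ligase pairs the alpha subunit Suclg1 with a beta subunit that sets the nucleotide made, Sucla2 for ATP and Suclg2 for GTP. Sucla2 was at 198 and 185 CPM in CrAT, against 138 and 131 CPM in MCS, with no overlap and replicates close to each other (log2 fold change 0.51, SE 0.27). Suclg2 was far less abundant and went the other way by value, at 12.7 and 6.11 CPM in CrAT, against 16.9 and 12.3 CPM in MCS. CrAT replicate 1 and MCS replicate 2 overlapped there, and the log2 fold change was -0.64 (SE 0.48). Leaving out CrAT replicate 2 gave -0.19, and leaving out CrAT replicate 1 gave -1.26. Suclg1 was at 203 and 224 CPM in CrAT, against 131 and 253 CPM in MCS, where the MCS libraries enclosed both CrAT libraries.

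Succinate dehydrogenase feeds electrons from the cycle straight into the respiratory chain. Sdha, its flavoprotein, was at 1026 and 1021 CPM in CrAT, against 718 and 685 CPM in MCS, with a log2 fold change of 0.54 (SE 0.29) and an adjusted p of 1. The replicates of each group were nearly alike and the groups lay apart, and the fold change kept between 0.52 and 0.58 with any 1 library left out. Sdhb, the iron-sulfur subunit, was at 217 and 244 CPM in CrAT, against 165 and 297 CPM in MCS, a log2 fold change of -0.0022 (95% interval -0.89 to 0.88). The membrane anchor Sdhc was at 190.2 and 183 CPM in CrAT, against 129.9 and 181 CPM in MCS, with no overlap by a narrow margin. The other anchor, Sdhd, was at 176 and 177 CPM in CrAT, against 151 and 212 CPM in MCS. In the 3 smaller subunits MCS replicate 1 was the lowest library, while in Sdha it was not. Per length, Sdha had the highest mean level of the cycle enzymes, 208 FPKM, followed by Mdh2 with 191 and Sdhd with 145.

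The last steps are fumarase (Fh1) and the mitochondrial malate dehydrogenase (Mdh2), which also serves the shuttle. Fh1 was at 109 and 124 CPM in CrAT, against 66.2 and 105 CPM in MCS, and the log2 fold change was 0.44 (SE 0.33). The groups did not overlap, but MCS replicate 2 lay close to CrAT replicate 1, and without MCS replicate 1 the value was 0.15. Mdh2 was at 689.8 and 763 CPM in CrAT, against 458 and 809 CPM in MCS. MCS replicate 2 was the highest library for Mdh2 and MCS replicate 1 the lowest.

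The 2 NADP-linked isocitrate dehydrogenases, which make NADPH in place of NADH, had unlike values. Idh2, the mitochondrial form, was lower in CrAT, at 71.0 and 81.8 CPM, against 131 and 129.8 CPM in MCS. The MCS replicates were almost equal and both CrAT libraries lay below them, 0.587-fold on average. The log2 fold change was -0.77 (SE 0.27, 95% interval -1.42 to -0.11), with an unadjusted p of 0.0280, the smallest among the members, and an adjusted p of 1 in edgeR. In DESeq2 the unadjusted p was 0.0372. The value lay between -0.85 and -0.67 with any 1 library left out. Idh1, the cytosolic form, was at 123 and 87.6 CPM in CrAT, against 113 and 81.1 CPM in MCS, where replicate 1 was higher than replicate 2 in both groups. The Mueller glia markers given above were lower in the same CrAT libraries, and their part in the Idh2 value was not tested.

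**Figure D2:**
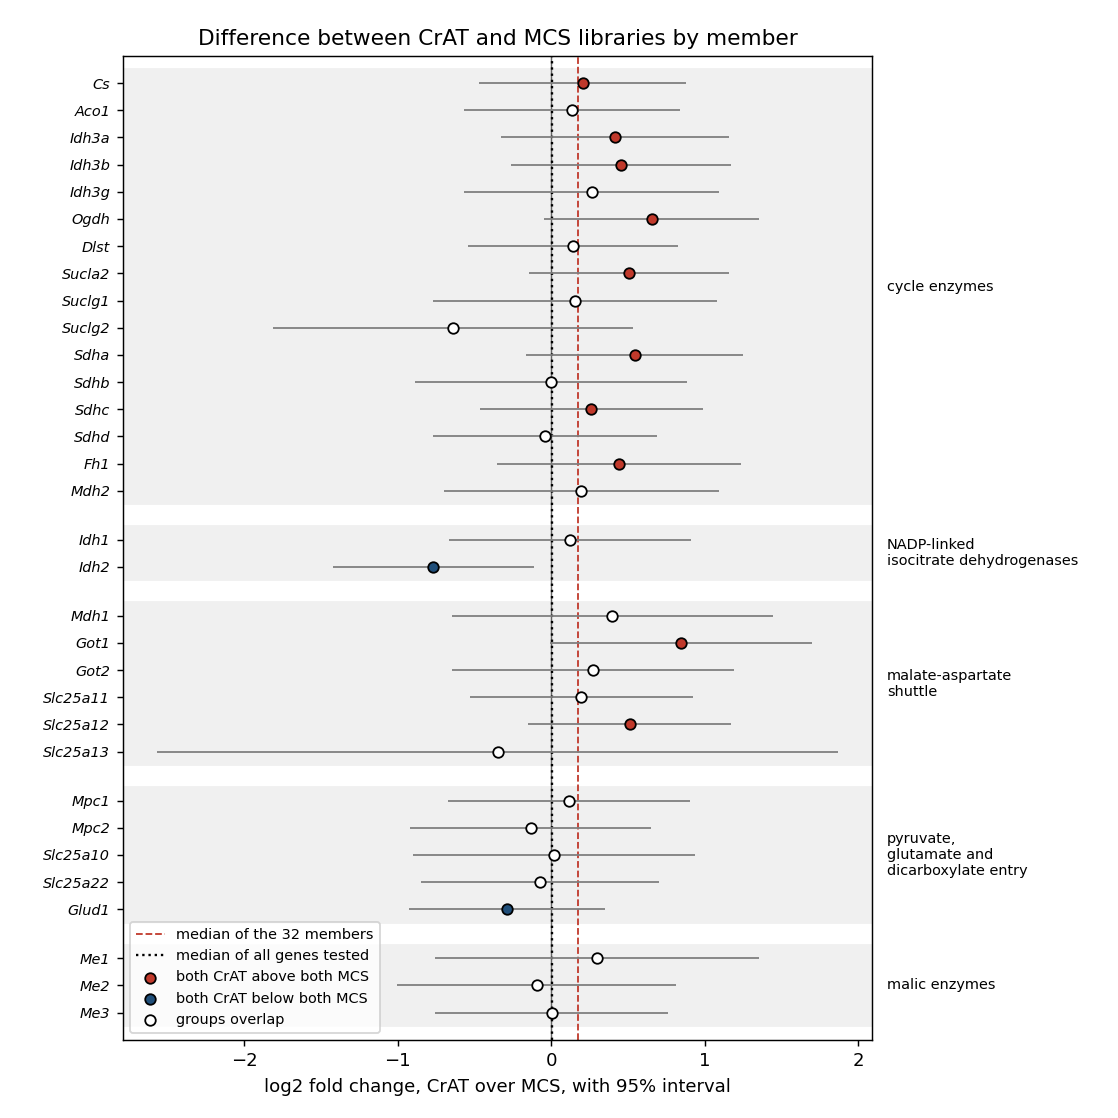
Log2 fold change of each member, CrAT over MCS, with its 95% interval from edgeR; filled points mark members whose groups do not overlap. The interval of Idh2 lies wholly below 0, that of Got1 begins just below 0, at -0.0054, and the dashed line of the members' median, 0.18, stands to the right of the dotted line for all genes.

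Of the malate-aspartate shuttle genes, 5 of 6 were higher in CrAT by value, with a median log2 fold change of 0.34. In 2 of them, Got1 and Slc25a12, each CrAT library exceeded each MCS library, as in 15.0% of all genes. Without MCS replicate 1, 2 of the 6 were higher and the median was -0.01. The sum was 2835 and 3652 CPM in the CrAT replicates, against 1720.1 and 2988 CPM in the MCS replicates.

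Got1 had the highest fold change of all members. This aminotransferase interconverts aspartate and 2-oxoglutarate with oxaloacetate and glutamate, in a reversible exchange. It was at 639 and 883 CPM in CrAT, against 343 and 503 CPM in MCS, or 1.80-fold higher on average. In both groups replicate 2 was the higher one, and the lower CrAT library still exceeded the higher MCS library. The log2 fold change was 0.85 (SE 0.35, 95% interval -0.0054 to 1.70), with an unadjusted p of 0.0511 in edgeR and 0.0279 in DESeq2, where the adjusted p was 0.927. With any 1 library left out it lay between 0.60 and 1.15. Amacrine cell markers, 8 genes, summed to 826 and 2325 CPM in CrAT, against 702 and 1472 CPM in MCS, also with replicate 2 the higher one, and their part in the Got1 value was not tested.

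Got2, the mitochondrial aminotransferase, was at 415 and 486 CPM in CrAT, against 263 and 481 CPM in MCS, so 3 libraries lay near each other and MCS replicate 1 below. A processed pseudogene, Got2-ps1, had between 1.65% and 1.72% of the counts of Got2 and can hold little of them. Mdh1, the cytosolic malate dehydrogenase, was the most abundant member per length, with a mean of 520.5 FPKM. Its level was 1331 and 1827 CPM in CrAT, against 796 and 1600 CPM in MCS. The groups overlapped and both second replicates were higher, with a log2 fold change of 0.40 (SE 0.43) that was -0.02 without MCS replicate 1.

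The shuttle is completed by 3 carriers. Slc25a12, the aspartate-glutamate carrier known as aralar, was at 208 and 196 CPM in CrAT, against 132 and 151 CPM in MCS. Its replicates were close and the groups lay apart, with a log2 fold change of 0.51 (SE 0.27) that was between 0.42 and 0.61 with any 1 library left out. Slc25a13, the related carrier citrin, was the least abundant member, with 6 and 39 counts in CrAT, against 26 and 32 counts in MCS. At this depth its log2 fold change of -0.35 had a 95% interval from -2.57 to 1.87, and without CrAT replicate 1 it was 0.41. The 2-oxoglutarate carrier Slc25a11 was at 243 and 258 CPM in CrAT, against 185 and 252 CPM in MCS, with overlap.

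Carriers and enzymes of entry showed no common direction. Of 5, 2 were higher and 3 lower, with a median log2 fold change of -0.07. The count was 0 higher without CrAT replicate 2 or without MCS replicate 1, and 4 higher without MCS replicate 2. Mpc1 and Mpc2, the partners that form the mitochondrial pyruvate carrier, were at 79.97 and 99.0 CPM and at 119.6 and 144 CPM in CrAT, against 65.3 and 99.5 CPM and 114 and 175 CPM in MCS. MCS replicate 2 was the highest library for both. Mpc1 is uncertain, because the processed pseudogene Mpc1-ps was listed with 31.7% to 35.4% of its counts, nearly the same share in each library. Together they summed to 108 and 131 CPM in CrAT, against 85.9 and 135 CPM in MCS.

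Glud1, glutamate dehydrogenase, which releases ammonia from glutamate to give 2-oxoglutarate, was at 104 and 101 CPM in CrAT, against 125 and 125 CPM in MCS. Each CrAT library lay below each MCS library by a small and even gap, a log2 fold change of -0.29 (SE 0.26, 95% interval -0.92 to 0.35). As with Idh2, the Mueller glia markers were lower in the same libraries, and their part was not tested. The dicarboxylate carrier Slc25a10 was at 22.4 and 24.1 CPM in CrAT, against 17.1 and 28.8 CPM in MCS. The glutamate carrier Slc25a22 was at 142 and 207 CPM in CrAT, against 165 and 201 CPM in MCS.

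The malic enzymes, which turn malate into pyruvate, did not separate the groups in any of the 3 genes. The cytosolic Me1 was at 97.7 and 65.2 CPM in CrAT, against 89.8 and 42.7 CPM in MCS. The mitochondrial Me2 was at 55.7 and 36.1 CPM in CrAT, against 59.6 and 38.4 CPM in MCS. In both genes replicate 1 was higher in each group, the order in which the rod markers also stood, and their part was not tested. Me3, also mitochondrial, was the least abundant member after Slc25a13 per length. It had 1.73 and 2.24 FPKM in CrAT, against 2.09 and 2.01 FPKM in MCS, a log2 fold change in counts of 0.0030 (95% interval -0.76 to 0.76).

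**Figure D3:**
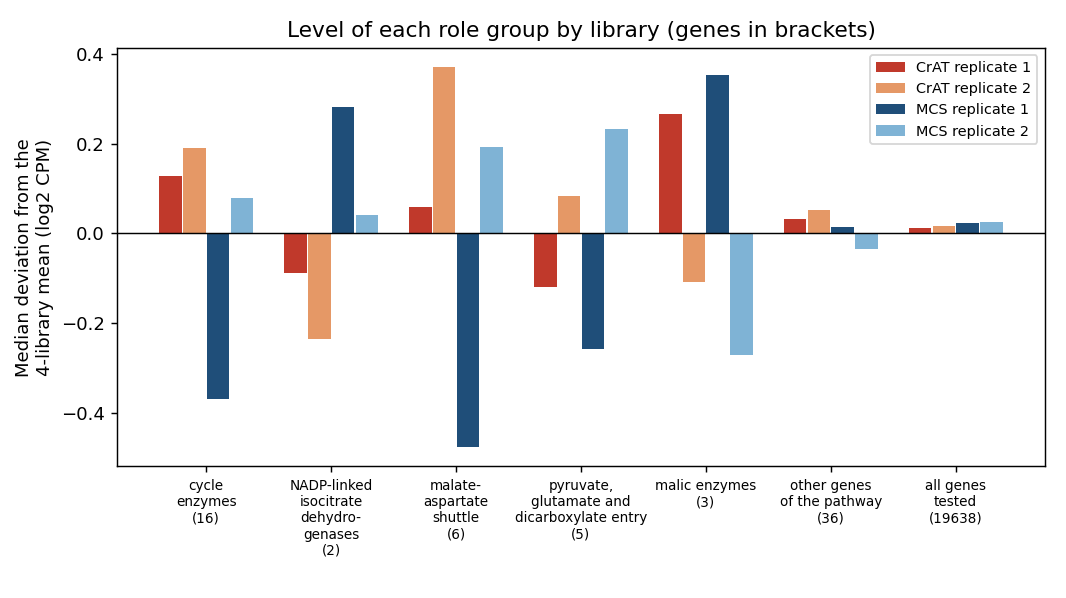
Median over the genes of each role group of the deviation from the gene's mean over 4 libraries, in log2 CPM, by library, with the number of genes in brackets. In the cycle enzymes MCS replicate 1 stands at -0.37 and the other 3 libraries between 0.08 and 0.19; in the other genes of the pathway all 4 lie between -0.03 and 0.05.

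MCS replicate 1 was the lowest library for 20 of 32 members, where it was lowest for 28.7% of all genes tested. These were 12 of 16 cycle enzymes, 5 of 6 shuttle genes and 3 of 5 genes of entry, with 0 of 2 NADP-linked isocitrate dehydrogenases and 0 of 3 malic enzymes. Among other genes of the pathway, which are described last, it was lowest in 9 of 36. The median deviation of the members from their own mean was 0.06 and 0.17 in the CrAT replicates, against -0.29 and 0.11 in the MCS replicates, on the log2 scale. This is the library with the high sum of nuclear retained RNA, most of it Malat1, and the part of that in the members' levels was not tested. MCS replicate 1 also had the lowest sums of amacrine (702 CPM), horizontal (9.45 CPM) and ganglion cell markers (59.0 CPM). It had the highest sums of Mueller glia (23219 CPM), astrocyte (404 CPM) and endothelial markers (838 CPM). The part of these in the members' levels was not tested either. Groups did not overlap in 10 members with CrAT above and 2 with CrAT below. Over all genes tested, they did not overlap, on either side, in 31.6%. Some members lay apart between the groups without leaning on MCS replicate 1. Of those higher in CrAT by value, Sdha and Sucla2 were lowest in MCS replicate 2, and Ogdh, Slc25a12 and Cs had MCS replicates close to each other. Both members with CrAT wholly below MCS, Idh2 and Glud1, had nearly equal MCS replicates. That they kept their direction with any 1 library left out follows from groups that do not overlap and adds nothing to it.

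Ratios of related members within a library do not depend on how libraries are scaled. With 2 libraries against 2, the two-sided exact permutation test cannot give a p below 0.3333, so the ratios are described as values. The ratio of Idh2 to Idh3a per length was 0.423 and 0.422 in the CrAT libraries, against 1.13 and 0.834 in the MCS libraries. Idh2 was thus below Idh3a in both CrAT libraries and in MCS replicate 2, and above it in MCS replicate 1. Against the other NAD-linked subunits, Idh2 was at 26.6 and 31.4 FPKM in CrAT, where Idh3b was at 71.7 and 83.0 and Idh3g at 79.4 and 74.5. In MCS libraries Idh2 was at 51.2 and 51.1 FPKM, where Idh3b was at 51.0 and 65.9 and Idh3g at 49.5 and 83.5. Idh2 to Idh1 was 0.616 and 1.00 in CrAT, against 1.24 and 1.72 in MCS.

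The ATP-forming to GTP-forming ligase ratio, Sucla2 to Suclg2, was 18.2 and 35.2 in CrAT, against 9.48 and 12.4 in MCS, with the ATP form in excess throughout. Aralar exceeded citrin in all libraries. Slc25a12 to Slc25a13 was 428 and 69.0 in CrAT, against 65.5 and 67.5 in MCS, and the outlying 428 rests on the 6 counts of Slc25a13 in CrAT replicate 1. Got1 to Got2 was 2.93 and 3.45 in CrAT, against 2.48 and 1.98 in MCS, with no overlap. Mdh1 to Mdh2 was 2.58 and 3.20 in CrAT, against 2.33 and 2.65 in MCS, with overlap. The ratio of Mpc1 to Mpc2 was 2.36 and 2.42 in CrAT, against 2.02 and 2.00 in MCS, subject to the pseudogene named above. That of Me1 to Me3 was 14.2 and 7.52 in CrAT, against 11.3 and 5.63 in MCS.

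**Figure D4:**
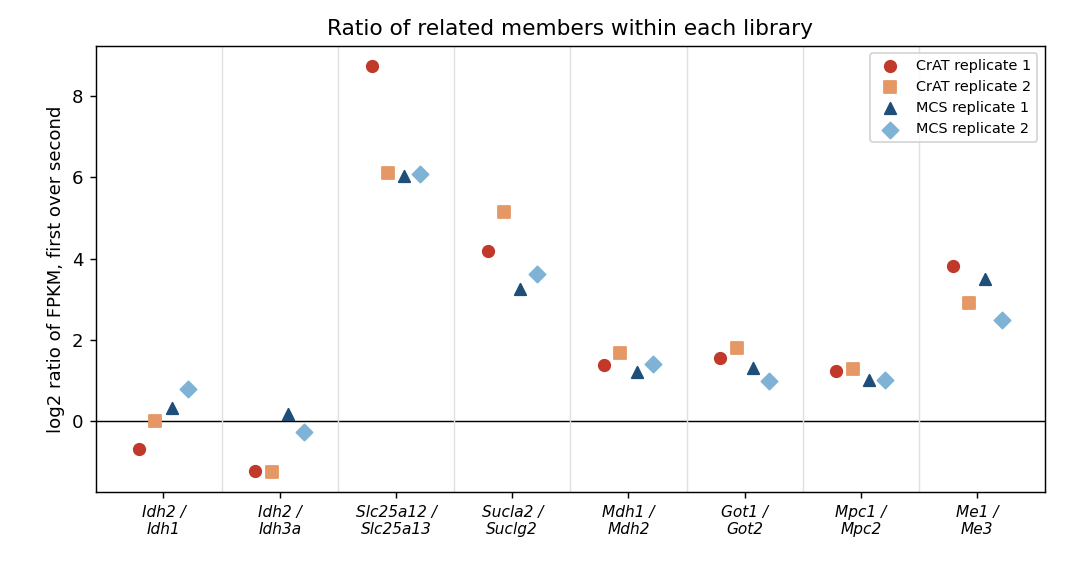
Log2 ratio of FPKM of 8 pairs of related members, first over second, in each library. For Idh2 over Idh3a both CrAT libraries stand at -1.24 and -1.25 and the MCS libraries at 0.18 and -0.26; the isolated CrAT point for Slc25a12 over Slc25a13 is 8.74.

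Other genes of the pathway, 37 in a list of enzymes, cofactors, carriers and neighbouring steps, of which 36 were tested, were about evenly split. Of these, 17 were higher and 19 lower in CrAT, with a median log2 fold change of -0.03, and 0 passed the threshold. Each CrAT library exceeded each MCS library in 8 of the 36, and the reverse held in 6, where the shares of all genes were 15.0% and 16.6%. Glul, the glutamine synthetase of Mueller glia, which draws on the same glutamate as the shuttle, was at 767 and 522 CPM in CrAT, against 1496 and 1831 CPM in MCS. The log2 fold change of Glul was -1.37 (SE 0.35, edgeR, unadjusted p = 0.0071, adjusted p = 1). Gpt, an alanine aminotransferase, was at 0.586 and 0.905 CPM in CrAT, against 1.61 and 5.11 CPM in MCS. Pdk1, a kinase that restrains pyruvate dehydrogenase, was at 55.4 and 60.4 CPM in CrAT, against 37.3 and 23.3 CPM in MCS, and Pdha1, a subunit of that enzyme, at 160.02 and 181 CPM in CrAT, against 123 and 90.5 CPM in MCS. Both lay above MCS in both CrAT libraries, and neither passed the test.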

How the data were processed

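The members and gene lists were chosen with earlier results of these data known. Per the labels' protocols, libraries came from a SMART-seq v4 low-input kit, which copies polyadenylated RNA and keeps no strand. STAR 2.7.2b was the aligner named, with build GRCm38.p6 (mm10), per the submitters' processing notes, and no annotation release or counting rule is given in the sources used. The authors deposited estimated counts per gene, rounded to whole numbers: FPKM times exon length and column total came within 0.5 of them, and 43.5% to 44.9% of these products were not whole within 0.02. Whole counts had been assumed in planning, and the test is unchanged. The authors' deposited FPKM is per kilobase of summed exons, scaled to counted reads. The 4 columns of other samples were not used.

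Genes were kept with edgeR's filterByExpr by group and scaled by TMM (factors 0.970 to 1.02). Groups were compared by the quasi-likelihood test of edgeR 4.0.16 (glmQLFit, robust, group as the only term; R 4.3.3), two-sided, Benjamini-Hochberg adjusted over 19638 genes, threshold 0.05. The procedure was tested on simulated data, where changes about as large as those of the members were seldom called at this threshold. The SE is the log2 fold change over the root of F. Alternatives were DESeq2 1.42.0, limma 3.58.1 on log2(FPKM + 0.1), other scalings, no filter, a replicate block and leaving out each library. Median deviations use log2 CPM with a prior count of 2. Values in every library were set for the 10 members with the smallest p, the 3 most and 2 least abundant, isozyme pairs and 4 other pathway genes; the other members were added, and Pou4f1, Pou4f2, overlapping genes and pseudogenes were named after their values were seen. Amplified reads are not independent molecules. The tables name no build for their coordinates, which served only to find overlapping genes.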

Additional observations from a re-analysis of the deposited data

How the results depend on the processing

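No member passed an adjusted p of 0.05 in any of 10 alternatives each. The number of genes called over the whole table was 0 in the main fit, 49 in DESeq2 and 2 with no filter on low counts, and 0 in the other 8 alternatives. The count of members higher in CrAT was 23, and 21 to 24 under other tools and scalings. With 1 library left out it was 16 to 24, the median log2 fold change of members 0.0068 to 0.45 (main 0.18), and members with both CrAT libraries above MCS 10 in the main fit and 13 to 22 with fewer libraries to exceed. Of 8 isozyme pairs, 6 did not overlap between the groups with all 4 libraries, where 31.6% of single genes did not, and no such share was computed for ratios. With any 1 library left out the count was 7, which is easier to reach with fewer libraries and has no background share here. With 1 library left out, the lone sample of a group is assumed to vary like the other group.

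The replicate numbers come from the titles, and nothing says that they mark a shared animal or day. Deviations of same-numbered libraries correlated across all genes (r = 0.50, a description over genes). With the replicate block the median of members was 0.21, 23 were higher, and 0 genes passed. In that edgeR fit 1922 of all 19638 genes had an unadjusted p under 0.05. Of the 32 members 4 had such a p, Got1 (0.0054), Idh2 (0.0112), Ogdh (0.0219) and Sdha (0.0401). With so many genes at this level over the whole table, the count is not read as a result about the members.

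Direction held in every alternative for 14 members, 11 higher (Cs, Idh3a, Idh3b, Ogdh, Dlst, Sucla2, Sdha, Sdhc, Fh1, Got1 and Slc25a12) and 3 lower (Idh2, Suclg2 and Glud1). All of these but Dlst and Suclg2 had groups that did not overlap, so leaving out 1 library could hardly turn their direction. In the other 18 members the direction turned in 35 of 180 fits, and the cause was not tested. Sdhb was 0.0082 in DESeq2, 0.057 with the block, 0.0049 in limma, 0.0073 with size factors and 0.0074 with no filter. Me3 was -0.0058 with the block, -0.056 in limma and -0.047 with library totals only, where Slc25a10 was -0.034. With 1 library left out, the range of the log2 fold change was -0.047 to 0.35 for Aco1, -0.14 to 0.38 for Idh1, -0.060 to 0.69 for Idh3g, -0.24 to 0.71 for Suclg1, -0.36 to 0.49 for Sdhb, -0.26 to 0.23 for Sdhd, -0.018 to 0.99 for Mdh1, -0.15 to 0.67 for Mdh2, -0.094 to 0.78 for Got2, -0.31 to 0.44 for Slc25a10, -0.0060 to 0.44 for Slc25a11, -2.09 to 0.41 for Slc25a13, -0.35 to 0.18 for Slc25a22, -0.15 to 0.46 for Mpc1, -0.41 to 0.22 for Mpc2, -0.14 to 0.94 for Me1, -0.44 to 0.26 for Me2 and -0.15 to 0.16 for Me3.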
